A study of Mus musculus with 42 samples.

Results

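Axon guidance ligands and receptors were followed through the conversion of mouse embryonic stem cells into anterior definitive endoderm (ADE). The set held 58 genes of 20972 genes with a symbol on the array and was chosen by gene name from the semaphorin, plexin and neuropilin, Eph, ephrin, Slit, Robo, netrin, netrin receptor, FLRT, RGM and neuritin families. All 58 were on the array. Each gene was represented by its brightest probe over all 42 arrays, found through the RefSeq accession of the probe, and all values are deposited log2 intensities. On this scale a difference of 1 is a doubling of intensity, and values of different probes were not set against each other.

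All cells came from 1 mouse ESC line with a GFP reporter in the Gsc locus and a RedStar reporter in the Hhex locus. Gsc marks primitive streak and mesendoderm, and Hhex marks definitive endoderm. Untreated groups were ESCs, unsorted d2 cells, and populations sorted by GFP (G) and RedStar (H) reporter signal, namely d3G-, d3G+, d4G-, d4G+, d5G-, d5Glow, d5Ghigh, d6G+H- and d6G+H+, where d is the day of differentiation. A further 3 groups were d6 cultures whose labels name no sort. Control cultures had DMSO only, ADE_EPZ cultures had 2.5 uM EPZ6438 during differentiation, and ES_EPZ cultures had EPZ6438 as ESCs and DMSO during differentiation. EPZ6438 inhibits EZH2, the enzyme of the Polycomb complex PRC2 that methylates histone H3. Each of the 14 groups had 3 arrays from independent experiments on the 1 reporter line. RNA came from bulk cells, in which fewer cells of a type and less RNA per cell cannot be told apart.

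Axon guidance proteins are ligands and cell surface receptors that steer growing axons by attraction or repulsion. Slit ligands act on Robo receptors, semaphorins on plexins with or without neuropilins, ephrins on Eph receptors, and netrins on Dcc, neogenin and Unc5 receptors. FLRT proteins bind Unc5 receptors, and RGM proteins bind neogenin. The same families guide cell migration, boundary formation and vessel growth outside the nervous system, including in the gastrulating embryo.

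Between 24459 and 40415 of 55681 probes were well above background per array, and no probe value was saturated. Replicates 1 and 2 of the untreated groups were scanned as 1 group and replicate 3 as another. The 3 slides of the inhibitor series each held 1 array of every regimen, and slides and treatment cannot be told apart when the untreated and the inhibitor series are set side by side. Of the 58 genes, 40 were above background on all 42 arrays, and each was above it on at least 1. A gene was called with an adjusted p of at most 0.01 (limma, Benjamini-Hochberg over all probes) and a log2 fold change of at least 1.5 in either direction. For the comparison with most calls, the share called among the 15504 genes above background on all arrays of at least 1 group is also given. Losses of a call are also given for a background offset of 50 in place of 10, for scaling to the 75th percentile, and for a fit of only the compared groups, which estimates the spread from fewer arrays.

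The largest count of changes was between ESCs and the end of the course. In d6G+H+ cells 22 of the 58 genes were higher than in ESCs and 6 were lower, which is 48.3% of the set, against 11.1% of all genes and 15% of the genes above background. The 58 genes were chosen with earlier results of these data known, which limits what this share says of the families. Of 23 further family members outside the set, 1 was higher and 1 lower in the same comparison. The median log2 fold change was 0.27 over the set and -0.002 over all genes, and the medians of the absolute change were 1.15 and 0.34. In d6G+H+ cells against ESCs 5.79% of all genes were called higher and 5.33% lower. Over the 11 comparisons 32 genes of the set were called at least 1 time and 26 were never called. The matching share of all genes is not given here, so this count does not set the set apart from other genes.

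The steps within the course had fewer calls. At d2 0 genes of the set were higher than in ESCs, with 0.358% of all genes higher, and 2 were lower, with 1.37% of all genes lower (1.73% in both directions). At d3 4 were higher in G+ than in G- cells, with 0.701% of all genes higher, and 1 was lower, with 1.1% lower (1.8% in both directions). At d4 6 were higher, with 0.806% of all genes higher, and 1 was lower, with 1.47% lower (2.28% in both directions). At d5 5 genes were higher in the Glow and Ghigh cells combined than in G- cells, with 0.539% of all genes higher, and 1 was lower, with 1.16% lower (1.7% in both directions). Ghigh cells were higher than Glow cells for 2 genes and lower for 0, with 0.243% of all genes higher and 0.0238% lower (0.267% in both directions). In d6G+H- cells 4 were higher than in d5Ghigh cells, with 1.39% of all genes higher, and 2 were lower, with 0.782% lower (2.17% in both directions). Between the d6 populations limma called 0 of the 58 genes, as it called 0% of all genes, and 4 of the set (Sema3a, Ephb1, Efna3 and Robo1) had an unadjusted p under 0.05.

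In the inhibitor series 4 genes were higher in ADE_EPZ than in Control, with 1.97% of all genes higher, and 2 were lower, with 0.801% lower (2.78% in both directions). ES_EPZ cultures had 1 gene higher than Control and 0 lower, with 0.367% of all genes higher and 0.062% lower (0.429% in both directions). Between the regimens 1 gene was higher in ADE_EPZ than in ES_EPZ and 0 were lower, with 0.114% of all genes higher and 0.0143% lower (0.129% in both directions).

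A looser threshold was an adjusted p of at most 0.05 with no minimum fold. Here 36 of the 58 genes differed between d6G+H+ cells and ESCs, and 37.4% of all genes did. Between the d6 populations 0 of the 58 differed, and 0.00477% of all genes did. The numbers that follow are counts out of 58, with the percent of all genes in brackets, so the number and the percent are not on the same scale. The counts were 8 at d2 against ESC (10.3% of all genes), 12 at d3 (7.24%) and 12 at d4 (8.66%) for G+ against G- cells, and 18 for Glow and Ghigh against G- cells at d5 (7.79%). They were 5 for d5Ghigh against d5Glow (0.911%) and 10 for d6G+H- against d5Ghigh (11.1%). In the inhibitor series they were 14 for ADE_EPZ against Control (18.1%), 5 for ES_EPZ against Control (3.29%) and 2 for ADE_EPZ against ES_EPZ (1.13%).

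**Figure D1:**
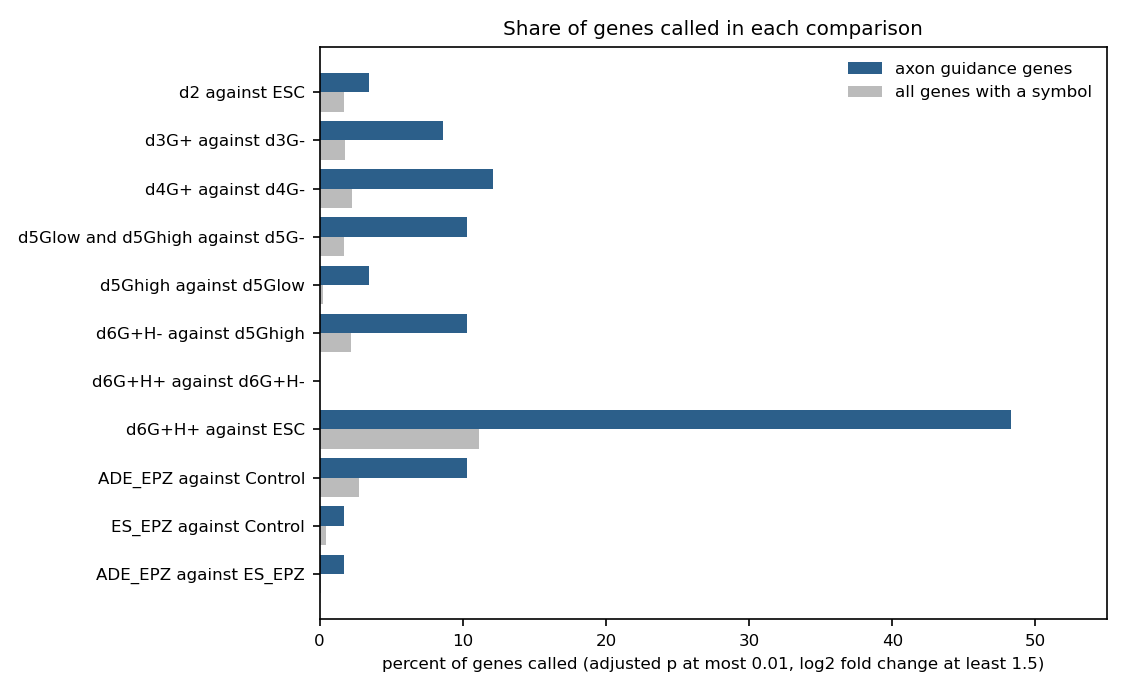
The horizontal axis is the percent of genes called in each of the 11 comparisons, with a dark bar for the 58 axon guidance genes and a grey bar for all 20972 genes. The bars for d6G+H+ against ESC, 48.3% and 11.1%, are the longest, and both bars are at 0 for the d6 populations.

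**Figure D2:**
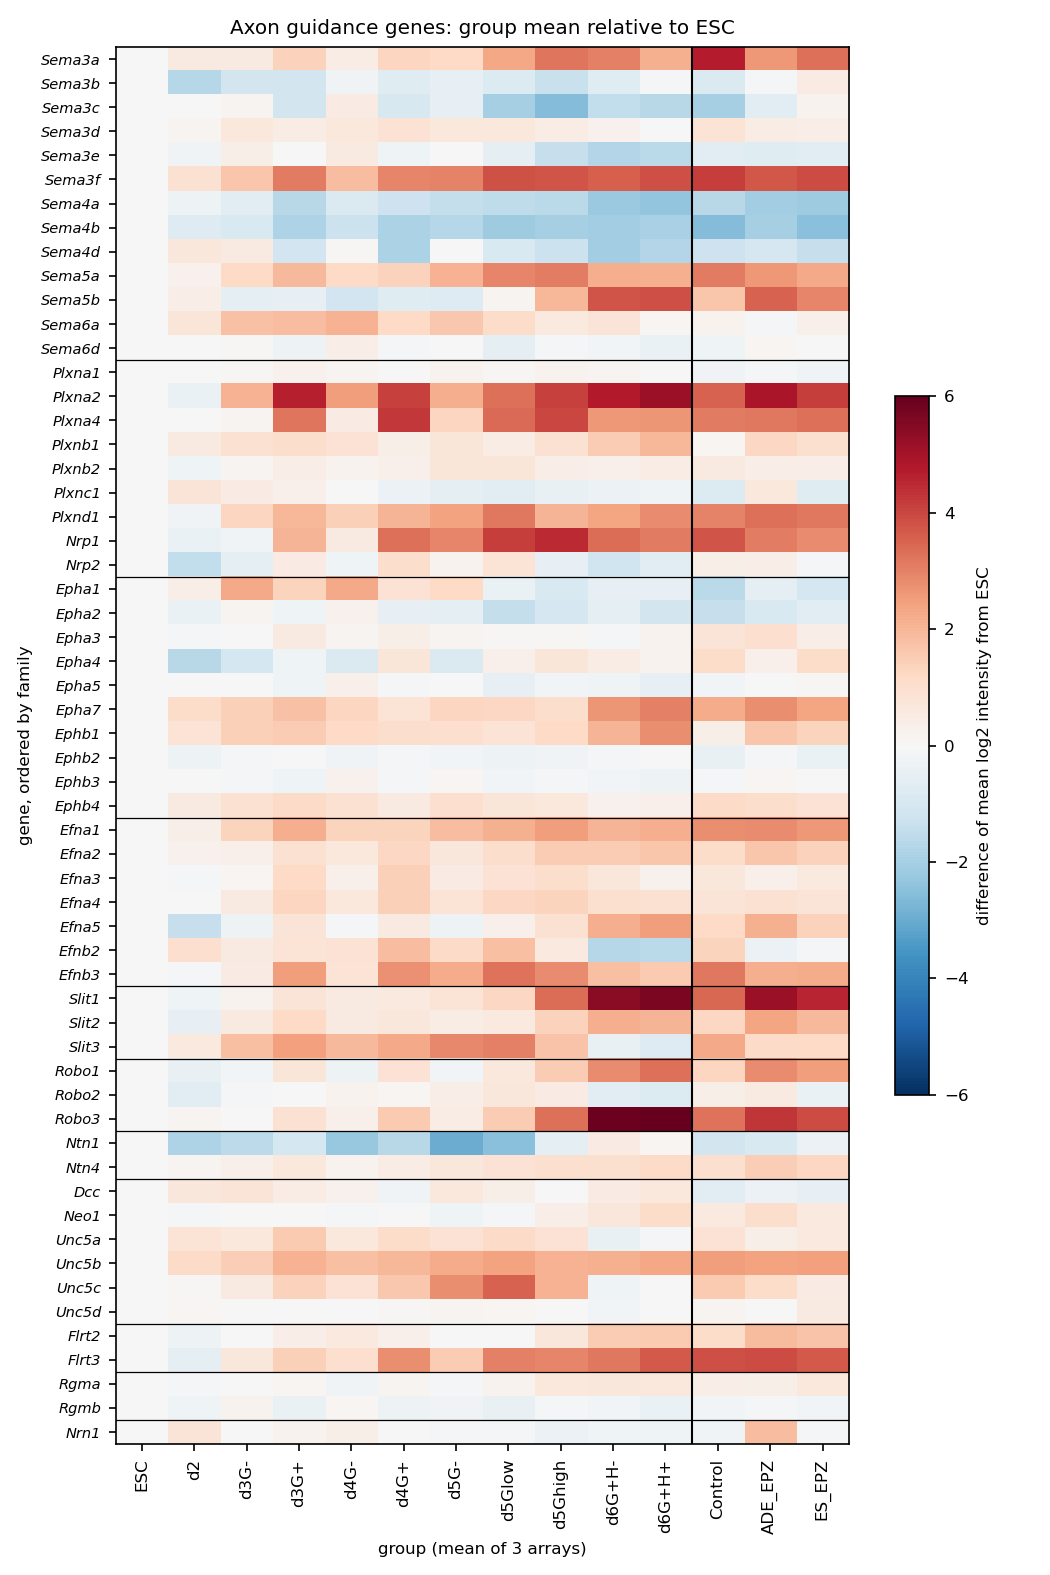
Colour gives the difference of each group mean (3 arrays) from the ESC mean in log2 intensity for the 58 genes, in rows by family, over the 14 groups, with the inhibitor series right of the vertical line. Slit1, Robo3 and Plxna2 reach the highest values in the sorted d6 populations, and Slit3 and Unc5c are high at d5 and not in the sorted d6 populations.

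The Slit and Robo families held the largest increases. Robo3, a receptor known from commissural axons that cross the midline, had log2 intensities of 5.34, 5.17 and 4.95 in ESCs, none of them above background. It was at 7.98, 8.51 and 8.95 in d5Ghigh cells, at 11.17, 11.15 and 10.80 in d6G+H- cells and at 10.89, 11.67 and 10.94 in d6G+H+ cells. The arrays of these sorted d6 populations were all above every earlier array. Robo3 was 64.6-fold higher in d6G+H+ cells than in ESCs (log2 fold change 6.01, standard error 0.43, limma adjusted p = 2.54e-13). Over the alternatives and the fits that left out 1 array, that log2 fold change ran from 4.96 to 7.42. Glow and Ghigh cells together were already above G- cells at d5, by 1.99 (standard error 0.37, limma adjusted p = 0.000547) on the log2 scale in 16 of 18 pairs of arrays. d5Glow cells spread from 5.59 to 8.21, and 1 of the 3 d5G- arrays was above background. From d5Ghigh to d6G+H- cells Robo3 rose by a further 2.56 (standard error 0.43, limma adjusted p = 0.000133), by 2.92 in replicates 1 and 2 and by 1.85 in replicate 3. The d5 call was lost with the offset of 50 (1.47), and both the d5 and the d6 step lost theirs with only the compared groups (limma adjusted p = 0.0989 and 0.025).

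Slit1, a secreted repellent that binds Robo receptors, followed a similar course. Its log2 intensities were 6.88, 6.73 and 6.33 in ESCs and were at most 7.51 on every array of d2, d3 and d4. In d5Glow cells they were 7.15, 7.56 and 8.98, in d5Ghigh cells 9.41, 9.59 and 11.04, and in d6G+H+ cells 11.97, 12.32 and 12.58. The Ghigh arrays did not overlap the Glow arrays, and the arrays of the sorted d6 populations did not overlap the d5 arrays. Slit1 rose by 2.12 from Glow to Ghigh (standard error 0.35, limma adjusted p = 0.0011) and by 2.07 from Ghigh to d6G+H- (standard error 0.35, limma adjusted p = 0.000192). The second step was 2.66 in replicates 1 and 2 and 0.88 in replicate 3. The first step lost its call without d5Ghigh replicate 3, where it was 1.60, without d5Glow replicate 1 (1.74) or without d5Glow replicate 2 (1.95). Over the whole course Slit1 was 49.9-fold higher in d6G+H+ cells than in ESCs (log2 fold change 5.64, standard error 0.35, limma adjusted p = 1.43e-14). With only the compared groups both steps lost their calls (limma adjusted p = 0.56 and 0.0684).

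Robo1, the main receptor for Slit repulsion, differed between G+ and G- cells from d3, by less than the fold threshold. Its log2 intensities were 9.08, 9.10 and 8.71 in d3G- and 9.84, 10.04 and 9.71 in d3G+ cells, and 8.98, 8.97 and 8.63 in d4G- and 10.29, 9.95 and 9.81 in d4G+ cells. The G- and G+ arrays did not overlap on either day. The differences were 0.90 at d3 (standard error 0.21, limma adjusted p = 0.0054) and 1.16 at d4 (standard error 0.21, limma adjusted p = 0.000331), under the log2 threshold of 1.5. In d6G+H+ cells Robo1 was at 12.63, 12.46 and 12.21, a rise of 3.29 on ESCs (standard error 0.21, limma adjusted p = 1.33e-14) or 9.75-fold. Its difference between the d6 populations, 0.47 in favour of G+H+, had an unadjusted limma p of 0.0287 and an adjusted p of 1.

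Slit2, a further Robo ligand, rose by 2.03 between ESCs and d6G+H+ cells (standard error 0.28, limma adjusted p = 5.35e-07). Slit3 took another course. Its log2 intensities were 6.72, 7.31 and 6.94 in ESCs, 10.44, 9.64 and 9.47 in d5G- cells and 10.35, 9.96 and 9.71 in d5Glow cells. They were 9.12, 8.75 and 8.21 in d5Ghigh cells and 6.16, 6.62 and 6.81 in d6G+H- cells. Every d3, d4 and d5 array was above every array of ESCs and of the sorted d6 populations. From d5Ghigh to d6G+H- Slit3 fell by 2.16 (standard error 0.31, limma adjusted p = 1.51e-05), by 2.54 in replicates 1 and 2 and by 1.40 in replicate 3. Slit3 fell at the step at which Slit1 and Robo3 rose. Robo2 was above background on 17 of 42 arrays and was called in no comparison. The Slit3 call was lost with only the compared groups (limma adjusted p = 0.0288).

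**Figure D3:**
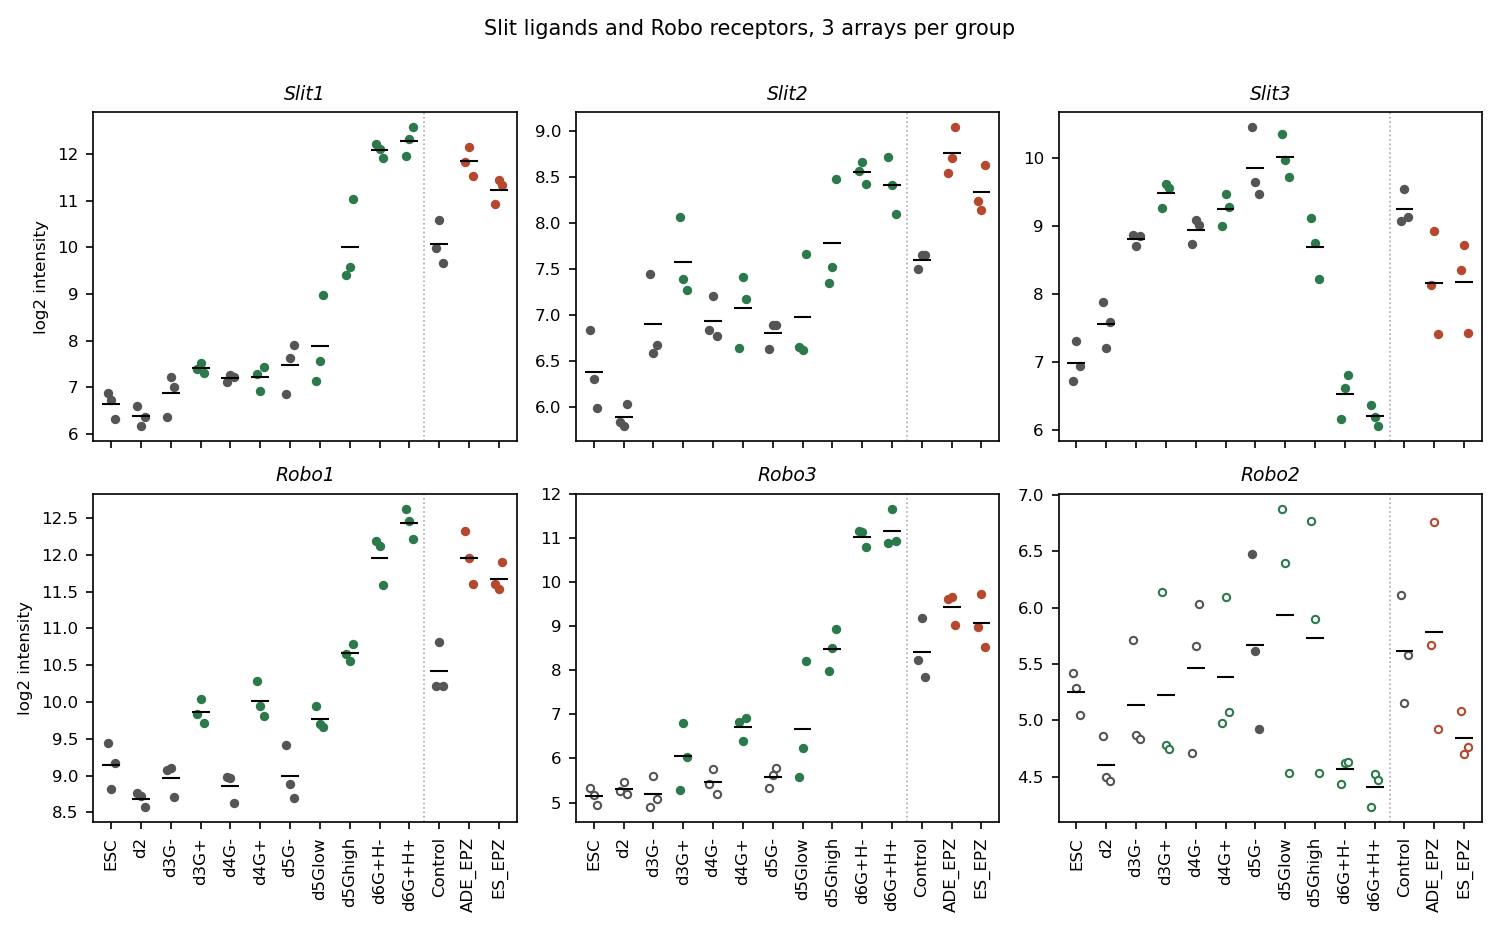
Log2 intensity of 3 Slit ligands and 3 Robo receptors is plotted for every array (points) and group mean (bars), in order of differentiation, with the inhibitor series right of the dotted line. Green marks populations sorted for GSC reporter signal, red the EPZ6438 regimens and grey the other groups, and open points mark groups in which fewer than 3 arrays were above background. Slit1, Robo1 and Robo3 are highest in the d6 sorted populations, where Slit3 is lowest.

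The promoter of Robo3, the gene of the set with the largest rise from ESCs to d6G+H+ cells, is shown because it was the 1 promoter of the set that held the bicoid-type motif described here. RefSeq promoter sequences of build GRCm38.p6 were matched for 46 of the 58 genes, and the 250 bases before each start were searched on both strands for TAATCC (the bicoid-type homeobox motif, which Gsc and Otx2 recognise), TGTTTAC (forkhead), AGATAA (the motif of GATA factors) and TCACACC (T-box). Over all 32851 promoters of the table, TAATCC was in 6.3%, TGTTTAC in 3.2%, AGATAA in 10.0% and TCACACC in 3.3%. Of the 61 promoters of the set, TAATCC was in 1, that of Robo3, and the other motifs were in 0, 3 and 2. A match gives letters only and was not tested for binding. Capitals mark GGATTA, which is TAATCC read on the other strand.
Robo3, minus strand, chr9:37433176-37433425: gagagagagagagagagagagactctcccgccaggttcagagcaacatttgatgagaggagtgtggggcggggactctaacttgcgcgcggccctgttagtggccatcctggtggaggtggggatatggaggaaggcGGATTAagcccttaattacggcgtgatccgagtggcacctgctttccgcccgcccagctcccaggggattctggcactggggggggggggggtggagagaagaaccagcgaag

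Semaphorins moved in both directions. Of 13 genes, 4 were higher in d6G+H+ cells than in ESCs and 5 were lower. Sema3f, a secreted ligand that acts through neuropilin 2, rose by 3.89 (standard error 0.38, limma adjusted p = 4.69e-10). Its log2 intensities went from 8.08, 8.63 and 7.10 in ESCs to 11.89, 12.48 and 11.09 in d6G+H+ cells, and were already at 11.17, 11.16 and 10.83 in d3G+ cells. The d3G- arrays, at 10.43, 9.21 and 9.19, were all lower, with a difference of 1.44 (standard error 0.38, limma adjusted p = 0.0194) that was not called.

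Sema5b, a transmembrane semaphorin with thrombospondin repeats, rose late. It was at 6.59, 6.21 and 6.70 in ESCs, at 6.85, 6.26 and 6.89 in d5Glow cells, at 8.36, 8.27 and 8.85 in d5Ghigh cells and at 10.48, 10.22 and 10.09 in d6G+H- cells. The 3 populations from d5Glow to d6G+H- did not overlap. The steps were 1.83 (standard error 0.31, limma adjusted p = 0.00118) and 1.77 (standard error 0.31, limma adjusted p = 0.000234). The call of the first was lost without d5Glow replicate 2, where it was 1.62, or without d5Ghigh replicate 3 (1.65). At d5 the Glow and Ghigh cells exceeded G- cells by 1.85, and between ESCs and d6G+H+ cells Sema5b rose by 3.88 (standard error 0.31, limma adjusted p = 4.02e-12). A second probe for Sema5b had a correlation of 0.978 with the brightest over the 42 arrays. The offset of 50 ended the calls of Glow and Ghigh against G- (1.34) and of Ghigh against Glow (1.48). Both steps from d5Glow to d6G+H- lost their calls with only the compared groups (limma adjusted p = 0.198 and 0.025) and with the 75th percentile scaling (limma adjusted p = 0.0178 and 0.0103).

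Sema5a, its closest relative, rose by 2.12 between ESCs and d6G+H+ cells (standard error 0.30, limma adjusted p = 7.48e-07). Sema3a, a secreted repellent that acts through neuropilin 1, was above background on no ESC array (5.06, 4.74 and 5.05). It was above background on all 3 d6G+H+ arrays (6.50, 6.80 and 7.98), 4.27-fold higher (limma adjusted p = 6.3e-05). At d5 it was 1.61 higher in Glow and Ghigh than in G- cells in 17 of 18 pairs of arrays, a call that was lost without d5G- replicate 3 (1.26), d5G- replicate 2 (1.45) or d5Glow replicate 1 (1.52). The d5 call was also lost with the offset of 50 (1.16), with the 75th percentile scaling (2.08, limma adjusted p = 0.072) and with only the compared groups (limma adjusted p = 0.0526), and the d6 call with the offset of 50 (1.35). A second probe for Sema3a changed by 0.96 between ESCs and d6G+H+ cells and by 1.09 at d5.

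The class 4 semaphorins Sema4a, Sema4b and Sema4d, transmembrane proteins best known from immune cells and as plexin B ligands, were highest in ESCs or d2 cells. Sema4a fell by 2.34 between ESCs and d6G+H+ cells (standard error 0.18, limma adjusted p = 3.12e-12) and Sema4b by 1.94 (standard error 0.23, limma adjusted p = 2.86e-08). Sema4d fell by 1.75 over the same span (standard error 0.30, limma adjusted p = 1.45e-05), or by 1.48 without d6G+H+ replicate 3, which ended the call. Sema4d also separated the sorted populations. Its log2 intensities were 10.01, 9.91 and 9.32 in d3G- and 8.67, 7.90 and 7.67 in d3G+ cells, and 9.30, 9.61 and 8.93 in d4G- and 7.08, 7.92 and 6.94 in d4G+ cells. All G+ arrays of a day lay under all G- arrays. The log2 fold change was -1.67 at d3 (standard error 0.30, limma adjusted p = 0.000286) and -1.97 at d4 (limma adjusted p = 3.49e-05). The d3 call was lost without d3G+ replicate 3 (log2 fold change -1.46). With only the compared groups the d3 call was lost as well (limma adjusted p = 0.0258).

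Sema3c and Sema3e, secreted semaphorins with known roles in heart outflow and vessel patterning, were also lower at d6 than in ESCs, with log2 fold changes of -1.66 (standard error 0.43, limma adjusted p = 0.00335) and -1.62 (standard error 0.32, limma adjusted p = 0.000112). The Sema3c call did not hold without ESC replicate 2 (-1.23), ESC replicate 1 (-1.64), d6G+H+ replicate 2 (-1.68) or d6G+H+ replicate 3 (-1.56), and that of Sema3e not without ESC replicate 2 or d6G+H+ replicate 3 (-1.42 each). At d5 Sema3c was lower in Glow and Ghigh cells than in G- cells (log2 fold change -1.80, limma adjusted p = 0.00228), a call lost without d5G- replicate 3 (-1.43) or d5G- replicate 2 (-1.91). Sema3b, a secreted family member, fell by 1.71 from ESCs to d2 (standard error 0.33, limma adjusted p = 0.000698), and without ESC replicate 2 the difference was -1.41 and not called. Sema3d was above background on 9 arrays. Sema6a and Sema6d, transmembrane ligands of class A plexins, were above background on all arrays and were not called. The probes of Sema6d disagreed, with a correlation of -0.20. With the offset of 50 the calls of Sema3c at d6 (-1.30) and d5 (-1.27), of Sema3e (-1.38) and of Sema3b (-1.46) were lost, and with only the compared groups those of Sema3c (limma adjusted p = 0.0138 and 0.029) and Sema3b (limma adjusted p = 0.0275). A second probe for Sema3c, above background on 22 arrays, changed by -0.72 between ESCs and d6G+H+ cells and by -0.32 at d5 and was called in 0 comparisons.

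Of 9 plexins and neuropilins, which receive semaphorins, 3 (Plxna2, Plxna4 and Nrp1) were higher in G+ than in G- cells at d3 and at d4, and the other 6 were not called on either day. Plxna4, a receptor of the Sema3a and Sema6 signals, was at 5.52, 5.14 and 4.88 in d3G- cells, with 2 of 3 arrays above background, and at 7.49, 9.03 and 8.21 in d3G+ cells. At d4 it was at 5.90, 5.42 and 5.27 in G- and at 9.75, 9.15 and 8.82 in G+ cells. The populations did not overlap on either day. Plxna4 was higher in G+ cells by 3.06 at d3 (standard error 0.46, limma adjusted p = 2.64e-05) and by 3.71 at d4 (standard error 0.46, limma adjusted p = 1.75e-06), and by 2.43 at d5 (standard error 0.40, limma adjusted p = 0.000111). At d5 the G- arrays spread from 5.18 to 7.34 and came within 0.08 of the lowest array of Glow and Ghigh cells. In d6G+H+ cells Plxna4 was 6.33-fold above ESCs. Over the alternatives and the fits that left out 1 array, that log2 fold change ran from 1.77 to 4.55. A second probe was above background on 1 array only, and the d5 call was lost with only the compared groups (limma adjusted p = 0.0988).

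Plxna2, a receptor known to bind Sema6a and, with neuropilin 1, Sema3a, was above its d2 level in both d3 populations. Its log2 intensities were 6.73, 6.47 and 6.34 in ESCs and 6.49, 5.94 and 5.96 at d2. They were 9.12, 8.39 and 8.35 in d3G- cells, 11.05, 11.46 and 11.07 in d3G+ cells and 11.62, 12.15 and 11.19 in d6G+H+ cells. The d3G- arrays lay between the d2 and the d3G+ arrays without overlap. Plxna2 was higher in G+ than in G- cells by 2.57 at d3 (standard error 0.33, limma adjusted p = 2.4e-06), by 1.58 at d4 (standard error 0.33, limma adjusted p = 0.00227) and by 1.52 at d5 (standard error 0.29, limma adjusted p = 0.000755). At d4 the difference was 1.03 and not called without d4G- replicate 3, whose level of 7.94 was the lowest of its group, and the call was also lost without d4G+ replicate 1 (1.61) or 2 (1.44). The d5 call was lost without replicate 3 of d5G- (1.41), d5Glow (1.36) or d5Ghigh (1.47). In d6G+H+ cells Plxna2 was 35.3-fold higher than in ESCs (log2 fold change 5.14, standard error 0.33, limma adjusted p = 2.83e-14). With only the compared groups the d4 and d5 calls were lost (limma adjusted p = 0.127 and 0.0176), and so were the d4 call with slide as a block (1.45) and the d5 call with the offset of 50 (1.45).

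Nrp1, the neuropilin that pairs with Sema3a and also with vascular growth factor, was not above background on any array of ESC, d2 or d3G- cells, all between 4.36 and 5.04. In d3G+ cells it was at 6.97, 7.13 and 6.84, above background on all 3 arrays. The difference was 4.75-fold (log2 fold change 2.26, standard error 0.48, limma adjusted p = 0.00285). Leaving out any 1 of the 6 arrays (replicate 1, 2 or 3 of d3G- or of d3G+) took the adjusted p over the threshold, to between 0.0104 and 0.0204, with the log2 fold change between 2.18 and 2.33, and with the offset of 50 the difference was 1.34 (limma adjusted p = 0.0533). At d4 the difference was 2.77 (standard error 0.48, limma adjusted p = 0.000255), with 2 of 3 d4G- arrays above background. At d5 the G- arrays were at 9.67, 7.76 and 6.12 and overlapped those of d5Glow (9.60, 9.06 and 8.53). In d6G+H+ cells Nrp1 was 8.5-fold above ESCs (limma adjusted p = 3.39e-06). Over the alternatives and the fits that left out 1 array, that log2 fold change ran from 2.14 to 5.62.

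Plxnd1, a receptor for Sema3e, and Plxnb1, a receptor for Sema4d, rose by 2.82 and 1.97 between ESCs and d6G+H+ cells (limma adjusted p = 2.43e-06 and 1.37e-07). A second probe for Plxnd1 changed by 1.00 and was not called. The named ligands Sema3e and Sema4d were lower over the same span. Nrp2, the partner of Sema3f, was not called in any comparison, and its group means ran from 10.37 at d2 to 12.92 in d4G+ cells. Its probes differed in sign between ESCs and d6G+H+ cells (-0.69 and 0.74). In ADE_EPZ against Control the brightest probe changed by 0.04 and the second by 1.70, and in ADE_EPZ against ES_EPZ by 0.47 and 1.22. The second probe of Nrp2 was above background on all 42 arrays and was called in 0 comparisons. Plxna1, Plxnb2 and Plxnc1 were not called either, and Plxnc1 was above background on 29 arrays.

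**Figure D4:**
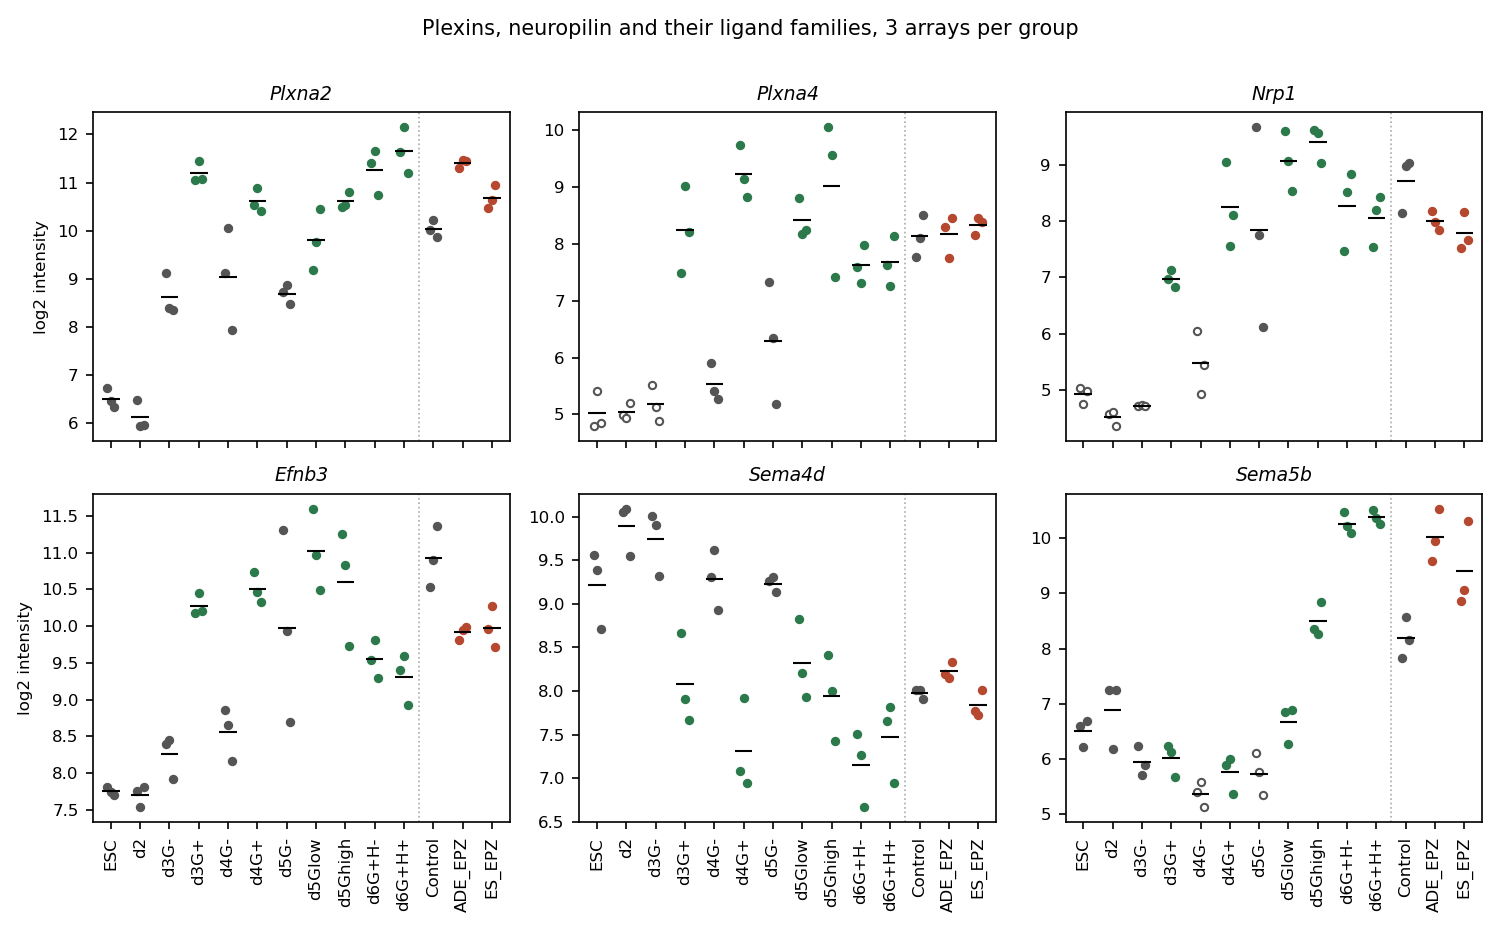
Log2 intensity of Plxna2, Plxna4, Nrp1, Efnb3, Sema4d and Sema5b is plotted for every array (points) and group mean (bars), with colours, open points and the dotted line as for the Slit and Robo genes. At d3 and d4 the G+ arrays lie above the G- arrays for Plxna2, Plxna4, Nrp1 and Efnb3 and under them for Sema4d, and Sema5b rises between d5Glow and d6.

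Of 7 ephrins, 4 were higher in d6G+H+ cells than in ESCs and 1 was lower, and of 10 Eph receptors 2 were higher. Efnb3, a transmembrane ligand of EphB receptors and Epha4, was at 8.40, 8.45 and 7.91 in d3G- and at 10.17, 10.45 and 10.20 in d3G+ cells. It was at 8.86, 8.66 and 8.16 in d4G- and at 10.73, 10.46 and 10.33 in d4G+ cells. No G+ array overlapped a G- array of its day. The differences were 2.02 at d3 (standard error 0.38, limma adjusted p = 0.000606) and 1.95 at d4 (standard error 0.38, limma adjusted p = 0.000924). The d4 call was lost without d4G+ replicate 1 (1.84, limma adjusted p = 0.0112) or d4G- replicate 3 (1.75, limma adjusted p = 0.0122). Between ESCs and d6G+H+ cells Efnb3 rose by 1.55, and without d6G+H+ replicate 2 by 1.41 with no call. With the offset of 50 that difference was 1.42 and not called.

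Efnb2, the ephrin known from arteries and from the neural crest, was lowest in the sorted d6 populations. It was at 10.68, 10.29 and 11.14 in d4G+ cells, at 9.81, 9.81 and 8.61 in d5Ghigh cells and at 6.78, 7.33 and 7.26 in d6G+H- cells. The arrays of the sorted d6 populations were under all others of the untreated groups. Efnb2 fell by 2.28 from d5Ghigh to d6G+H- (standard error 0.32, limma adjusted p = 1.52e-05), by 2.75 in replicates 1 and 2 and by 1.35 in replicate 3. Against ESCs it was lower in d6G+H+ cells by 1.61 (log2 fold change -1.61, limma adjusted p = 0.000161), a call lost without ESC replicate 2 (-1.43) or d6G+H+ replicate 1 (-1.49). It was also lost with the offset of 50 (-1.39), and the call at the d6G+H- step was lost with only the compared groups (limma adjusted p = 0.0445). A second, dimmer probe for Efnb2, above background on 30 arrays, had a correlation of 0.82 with the brightest, changed by -0.29 at the d6G+H- step and by -0.65 against ESCs, and was called in 0 comparisons.

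The GPI-anchored ephrins Efna5, Efna1 and Efna2 rose by 2.52, 2.16 and 1.65 between ESCs and d6G+H+ cells (limma adjusted p = 9.11e-11, 2.45e-05 and 1.42e-08). Efna1 was at 6.77, 7.30 and 6.95 in ESCs and at 9.24, 8.67 and 9.59 in d6G+H+ cells, without overlap. It had reached 9.67, 8.78 and 9.07 in d3G+ cells, where the d3G- arrays (9.16, 7.92 and 7.97) overlapped. Efna5 first fell from ESCs to d2, by 1.40 on the log2 scale (standard error 0.23, limma adjusted p = 9e-05), under the fold threshold. Efna3 and Efna4 were higher in G+ cells at d3 and d4 by 0.76 to 1.15 on the log2 scale, with adjusted p values between 0.000108 and 0.000331 and no call on the brightest probe. A second probe for Efna3, above background on all 42 arrays with a correlation of 0.938, changed by 2.34 at d3 and by 2.01 at d4 and was called in 2 comparisons. The Efna2 call was lost with the offset of 50 (1.47).

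Epha7, a receptor of ephrin A ligands, was the Eph receptor with the largest rise. It was at 6.31, 7.09 and 7.01 in ESCs, at 7.77, 7.80 and 7.97 in d5Ghigh cells, at 9.93, 9.60 and 8.84 in d6G+H- cells and at 10.04, 10.16 and 9.22 in d6G+H+ cells. The arrays of these sorted d6 populations did not overlap the ESC or the d5Ghigh arrays. It rose by 1.61 from d5Ghigh to d6G+H- (standard error 0.26, limma adjusted p = 8.98e-05), or 1.37 without d6G+H- replicate 1, which ended the call, and by 3.00 between ESCs and d6G+H+ cells. Ephb1 was above background on no ESC array and on all d6G+H+ arrays, 7.02-fold higher (limma adjusted p = 2.67e-07). Over the alternatives and the fits that left out 1 array, that log2 fold change ran from 1.94 to 5.03. The d6G+H- call of Epha7 was also lost with the offset of 50 (1.47) and with only the compared groups (limma adjusted p = 0.0548). Other probes for Epha7 changed by 1.00 and 0.64 at that step and by 1.83 and 1.04 between ESCs and d6G+H+ cells.

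Epha4, which binds ephrins of both classes, fell by 1.68 from ESCs to d2 (standard error 0.30, limma adjusted p = 0.000254). That call was lost without d2 replicate 2 (log2 fold change -1.24) or ESC replicate 3 (-1.46). In d4G+ cells (9.66, 9.07 and 9.79) it was 1.63 higher than in d4G- cells (7.89, 8.01 and 7.74), with no overlap (limma adjusted p = 0.000448), and 1.49 without d4G+ replicate 3, with no call. Epha1 was at 13.02, 12.91 and 13.47 in d3G- cells and at 13.00, 13.03 and 13.30 in d4G- cells, above all ESC arrays (10.72, 11.35 and 10.45). It was not called in any comparison, and the d5 difference of -1.85 between Glow and Ghigh and G- cells had a limma adjusted p of 0.0145. Epha2, a receptor of Efna1, was at 12.59, 12.79 and 12.12 in ESCs and at 11.40, 11.68 and 11.11 in d6G+H+ cells, a difference of -1.11 (standard error 0.33, limma adjusted p = 0.0113) that was not called. Epha5, Ephb2, Ephb3 and Ephb4 were above background on all arrays and had group means within 1.16 of each other, and Epha3 was above background on 8 arrays. The probes of Epha5 disagreed, with a correlation of 0.17 and the second probe at a mean of 4.62. The offset of 50 ended both Epha4 calls (-1.41 at d2 and 1.49 at d4), and a fit of only the compared groups that at d2 (limma adjusted p = 0.0488).

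Of the netrin system 1 receptor was called. Unc5b, a repulsive netrin receptor also known from vessels, was at 11.28, 11.93 and 9.88 in ESCs and at 13.66, 13.41 and 12.99 in d6G+H+ cells, a rise of 2.33 (standard error 0.34, limma adjusted p = 1.41e-06). At d2 it was at 12.30, 11.83 and 12.34, and the ESC arrays overlapped. Ntn1, the netrin with the best known role in axon attraction, was at 9.13, 9.14 and 9.82 in ESCs, at 5.95, 6.40 and 6.75 in d5G- cells and at 9.86, 9.71 and 10.01 in d6G+H- cells. The d5G- arrays were under all arrays of ESCs and of the sorted d6 populations. In d5Glow cells Ntn1 spread from 5.20 to 8.76 and in d5Ghigh cells from 7.81 to 10.13, and no comparison was called.

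Unc5c, a further netrin receptor, was at 10.27, 9.16 and 6.05 in d5Glow cells and at 8.67, 7.61 and 4.88 in d5Ghigh cells, with replicate 3 the lowest of both. It was above background on none of the 6 arrays of the sorted d6 populations, all between 4.49 and 5.32. From d5Ghigh to d6G+H- the difference was -2.33 and was not called. Unc5a was 1.33 lower on the log2 scale at that step (log2 fold change -1.33, limma adjusted p = 0.00226), under the fold threshold. Neo1, which binds netrins and RGM proteins, was 1.12 higher in d6G+H+ cells than in ESCs (limma adjusted p = 0.00101) and was not called. Dcc, Ntn4 and Unc5d were not called. The other probes of Dcc were at means of 4.89 and 4.48, near background, against 13.84 for the brightest, with correlations of -0.32 and -0.02 to it, and the level of Dcc is uncertain for that reason.

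Flrt3, which binds Unc5 receptors and is known from the migrating endoderm of the embryo, rose by 3.68 between ESCs and d6G+H+ cells (standard error 0.33, limma adjusted p = 5.33e-11) or 12.9-fold. It was at 8.40, 8.83 and 7.74 in ESCs, at 9.45, 9.41 and 9.07 in d4G- cells, at 11.43, 10.58 and 11.36 in d4G+ cells and at 11.78, 11.94 and 12.31 in d6G+H+ cells. These populations did not overlap. At d4 the G+ cells were higher by 1.81 (standard error 0.33, limma adjusted p = 0.000393). All 3 probes of Flrt3 had correlations of at least 0.99 with the brightest. Flrt2 rose by 1.59 between ESCs and d6G+H+ cells (standard error 0.38, limma adjusted p = 0.00154) with 1 of 3 ESC arrays above background, a call lost without d6G+H+ replicate 2 (1.23), ESC replicate 3 (1.41) or ESC replicate 2 (1.44). Rgma and Rgmb, which bind neogenin, were not called, and Rgmb was above background on 7 arrays. The Flrt2 call was lost with the offset of 50 (1.05) and with only the compared groups (limma adjusted p = 0.0179), and a second probe for Flrt2 changed by 1.11.

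Other genes of the same pathways, from lists of further family members and of intracellular effectors, were counted too. Of 23 further ligands and receptors 1 (Sema7a) was higher and 1 (Robo4) lower in d6G+H+ cells than in ESCs. Of 33 cytoplasmic effectors 5 were higher (Ablim1, Dpysl3, Mical1, Srgap1 and Vav3) and 3 lower (Crmp1, Dpysl4 and Rnd1). Srgap1, a GTPase activator that acts under Robo receptors, rose by 5.11 (standard error 0.30, limma adjusted p = 2.52e-15). Dpysl3, a collapsin response mediator of the semaphorin pathway, rose by 3.43 (standard error 0.32, limma adjusted p = 1.73e-10), and its relative Crmp1 fell by 3.26 (standard error 0.41, limma adjusted p = 7.69e-08).

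Markers of the cell types that the cultures could hold were measured beside these genes. Of 6 neural markers 0 were higher and 4 (Elavl3, Map2, Pax6 and Tubb3) lower in d6G+H+ cells than in ESCs, and their summed level, given as the log2 of the sum of linear intensities, ran from 11.18 to 11.44 in ESCs and from 8.27 to 9.25 in d6G+H+ cells. Of 5 haemato-vascular markers 0 were higher and 1 (Tek) lower, and Cdh5, Tal1 and Tek were above background on no d6G+H+ array. Of 5 visceral endoderm markers 2 (Apoa1 and Ttr) were higher, and the summed level was 7.91 to 8.21 in ESCs and 9.90 to 10.95 in d6G+H+ cells. Of 5 ADE markers all 5 were higher, from 8.09 to 8.72 in ESCs to 16.39 to 16.54 in d6G+H+ cells in summed level. From d5Ghigh to d6G+H- the ADE markers went from 14.06 to 15.93 up to 15.70 to 16.32, ranges that overlap, with Hhex called higher. At the same step the visceral endoderm markers went from 8.04 to 8.17 up to 9.09 to 9.72, without overlap. Of these 5 markers 2 (Amn and Apoa1) were called higher and 0 lower. Of 5 mesendoderm markers 2 (Mixl1 and T) were called lower and 0 higher. Between G- and G+ cells at d3, 4 of 5 mesendoderm markers were higher and 2 of 5 pluripotency markers (Esrrb and Zfp42) lower. The part of these cell types in the changes of axon guidance genes was not tested.

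In d6 cultures with EPZ6438 during differentiation 6 of the 58 genes (10.3%) were called against Control, beside 2.78% of all genes. Nrn1, a GPI-anchored protein that promotes neurite outgrowth, was at 5.22, 5.26 and 4.48 in Control, with 1 of 3 arrays above background, and at 6.70, 7.57 and 6.82 in ADE_EPZ, with all 3 above it. In ES_EPZ it was at 5.00, 5.24 and 5.05, with 1 of 3 above background. The ADE_EPZ arrays did not overlap those of the other regimens. Nrn1 was higher in ADE_EPZ by 2.05 than in Control (standard error 0.29, limma adjusted p = 1.14e-05) and by 1.94 than in ES_EPZ (standard error 0.29, limma adjusted p = 0.00031). Among the untreated groups the highest group mean of Nrn1 was 5.98 at d2, where replicate 2 was at 7.12 and the other arrays at 5.23 and 5.60. Both ADE_EPZ calls of Nrn1 were lost with the offset of 50, where the differences were 1.27 from Control (limma adjusted p = 7.54e-06) and 1.23 from ES_EPZ (limma adjusted p = 0.000148).

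Sema5b, Slit1 and Robo1, which rose over the untreated course, were higher in ADE_EPZ than in Control. Sema5b was at 7.83, 8.57 and 8.15 in Control, at 9.58, 9.94 and 10.53 in ADE_EPZ and at 8.86, 9.07 and 10.31 in ES_EPZ. Slit1 was at 9.99, 10.60 and 9.66 in Control, at 11.83, 12.16 and 11.54 in ADE_EPZ and at 10.93, 11.44 and 11.34 in ES_EPZ. Robo1 was at 10.22, 10.82 and 10.21 in Control, at 12.33, 11.95 and 11.61 in ADE_EPZ and at 11.60, 11.53 and 11.90 in ES_EPZ. For all 3 genes both inhibitor regimens lay above Control without overlap. The differences of ADE_EPZ from Control were 1.84 for Sema5b (standard error 0.31, limma adjusted p = 0.000103), 1.76 for Slit1 (standard error 0.35, limma adjusted p = 0.00079) and 1.55 for Robo1 (standard error 0.21, limma adjusted p = 5.08e-06).

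In ES_EPZ the differences from Control were 1.23 for Sema5b (limma adjusted p = 0.028) and 1.26 for Robo1 (limma adjusted p = 0.000903), under the fold threshold. The Slit1 difference in ES_EPZ was 1.15 and was not called either. Within the 3 slides the ADE_EPZ difference was 0.94, 2.18 and 2.17 for Slit1 and 0.79, 2.12 and 1.74 for Robo1. Without Control replicate 3 the Slit1 call was lost (1.55, limma adjusted p = 0.011). The Robo1 call was lost without ADE_EPZ replicate 1 (1.36), Control replicate 1 (1.45) or Control replicate 3 (1.45). The Robo1 call was also lost with the 75th percentile scaling (1.49).

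Sema3a and Efnb2 were lower in ADE_EPZ. Sema3a was at 9.57, 9.37 and 9.97 in Control, at 7.71, 7.75 and 7.22 in ADE_EPZ and at 8.36, 8.68 and 7.73 in ES_EPZ. Efnb2 was at 10.39, 9.92 and 10.27 in Control, at 8.65, 8.66 and 8.10 in ADE_EPZ and at 9.09, 9.22 and 8.03 in ES_EPZ. Both inhibitor regimens lay under Control on every array. The differences of ADE_EPZ from Control were -2.08 for Sema3a (standard error 0.40, limma adjusted p = 0.000491) and -1.72 for Efnb2 (standard error 0.32, limma adjusted p = 0.000358). In ES_EPZ Efnb2 differed from Control by -1.41 (limma adjusted p = 0.0165) and Sema3a by -1.38, with no call for either. With the 75th percentile scaling the Sema3a call was lost (-2.34, limma adjusted p = 0.0413). Second probes changed by -1.62 for Sema3a and by -0.55 for Efnb2 in ADE_EPZ against Control.

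Further genes passed the adjusted p threshold in ADE_EPZ without reaching the fold threshold. Plxnc1, the receptor of Sema7a, was higher than in Control by 1.46 (standard error 0.20, limma adjusted p = 8.14e-06) and than in ES_EPZ by 1.38 (limma adjusted p = 0.000252), with 6.58, 6.37 and 6.17 in ADE_EPZ and no array of Control or ES_EPZ above background, and a second probe for Plxnc1 changed by 0.57. Plxna2, Slit2, Plxnb1 and Efna5 were higher by 1.37, 1.16, 1.16 and 0.92 (limma adjusted p between 0.00198 and 0.00621). Robo3, whose arrays were at 8.24, 9.19 and 7.85 in Control and 9.62, 9.67 and 9.04 in ADE_EPZ, overlapped between the regimens and was not called.

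With EPZ6438 before differentiation 1 of the 58 genes (1.72%) was called against Control, beside 0.429% of all genes. Sema3c was at 5.36, 6.74 and 5.95 in Control, at 8.57, 7.33 and 8.72 in ES_EPZ and at 7.41, 7.22 and 7.43 in ADE_EPZ, with both regimens above every Control array. It was higher in ES_EPZ by 2.19 (standard error 0.44, limma adjusted p = 0.00564). The call was lost without ES_EPZ replicate 1 (2.01), ES_EPZ replicate 3 (1.94), Control replicate 1 (1.87) or Control replicate 3 (2.16), with adjusted p values between 0.0373 and 0.0919. It was also lost with the 75th percentile scaling (2.54, limma adjusted p = 0.0155) and with only the compared groups (limma adjusted p = 0.0724), and the second probe changed by 0.75. The difference of ADE_EPZ from Control was 1.34 (limma adjusted p = 0.0419). The regimens share the Control arrays, so their differences from Control are not independent.

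**Figure D5:**
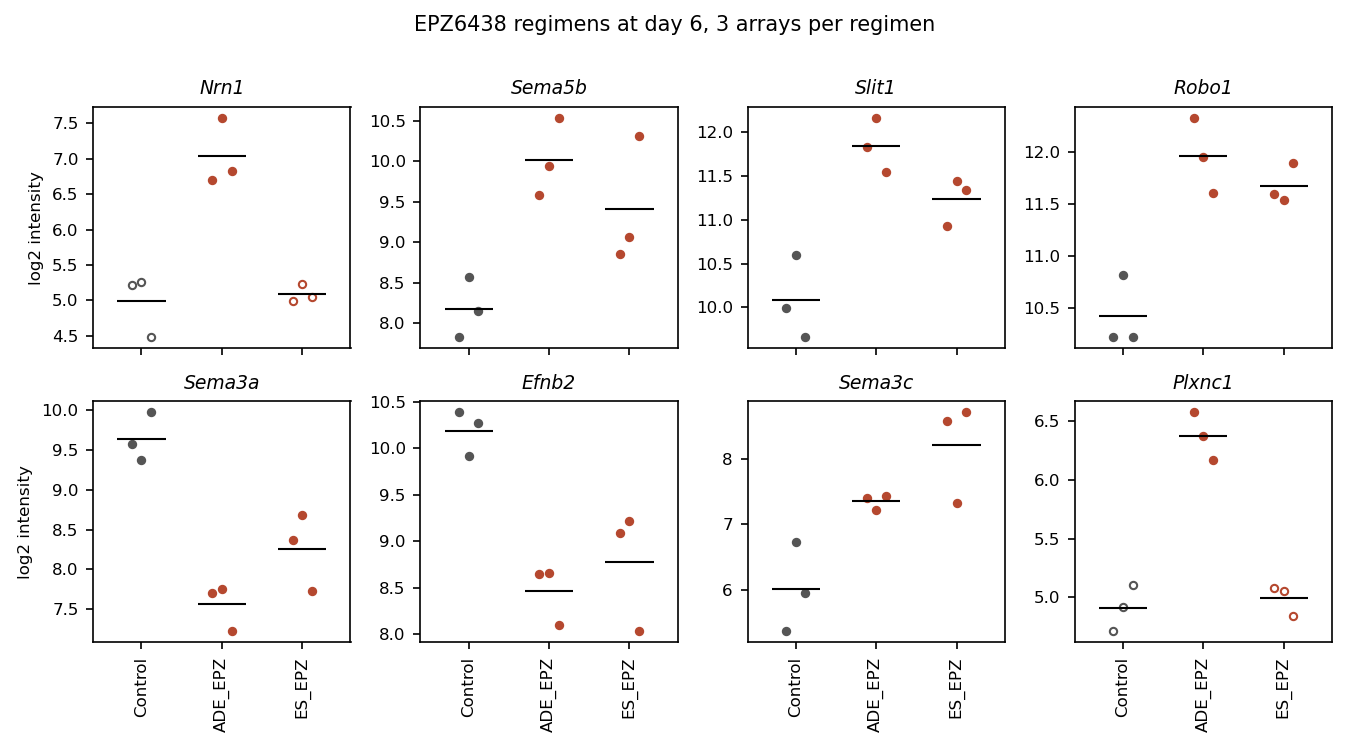
Log2 intensity of 8 genes is plotted for every array (points) and regimen mean (bars) in Control (grey), ADE_EPZ and ES_EPZ (red) cultures at d6, with open points where fewer than 3 arrays of a regimen were above background. The ADE_EPZ points of Nrn1 and Plxnc1 lie above those of both other regimens, and for the other 6 genes the points of both inhibitor regimens lie on the same side of every Control point.

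Cell type markers moved with the same regimens. Of 5 ADE markers 1 (Hhex, by 2.24, limma adjusted p = 0.000217) was higher in ADE_EPZ than in Control and 0 in ES_EPZ, and the summed level of the 5 ran from 14.09 to 14.63 in Control, from 15.59 to 16.06 in ADE_EPZ and from 15.37 to 15.98 in ES_EPZ. Of 5 mesendoderm markers Mixl1 was lower in both regimens, with log2 fold changes of -3.35 and -1.72. Of 5 pluripotency markers Zfp42 was higher in ADE_EPZ by 1.51, and of 6 neural markers Map2 was higher by 1.68. The summed level of the neural markers was 7.91 to 8.29 in Control, 8.59 to 8.96 in ADE_EPZ and 8.25 to 9.33 in ES_EPZ, and Neurog2 was above background on none of these 9 arrays. Of 5 haemato-vascular markers 0 were called, with Cdh5 above background on all 3 ADE_EPZ arrays and on none of Control or ES_EPZ. Of the cytoplasmic effectors Srgap1 (1.92), Dpysl3 (1.74) and Crmp1 (2.73) were higher in ADE_EPZ. The part of cell composition in the changes of axon guidance genes was not tested.

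PRC2 is known to be recruited to promoters rich in CG dinucleotides, and the promoters of the genes called in the inhibitor comparisons are shown for that reason, where a RefSeq sequence was matched. These were Sema5b and Robo1, which were higher in ADE_EPZ, Sema3a and Efnb2, which were lower, and Sema3c, which was higher in ES_EPZ. No sequence was matched for Nrn1 and Slit1, which were also called higher in ADE_EPZ, so their promoters are missing here. The 250 bases before the start held 19 CG in Sema5b, 11 in Robo1, 2 in Sema3a, 27 in Efnb2 and 39 in Sema3c, against a median of 6 over the 32851 promoters of the table, of which 17.9% held at least 20. Over the 61 promoters of the set the median was 16 and 37.7% held at least 20. Histone methylation of these promoters was not analysed here. Capitals mark each CG.
Sema5b, plus strand, chr16:35541112-35541361: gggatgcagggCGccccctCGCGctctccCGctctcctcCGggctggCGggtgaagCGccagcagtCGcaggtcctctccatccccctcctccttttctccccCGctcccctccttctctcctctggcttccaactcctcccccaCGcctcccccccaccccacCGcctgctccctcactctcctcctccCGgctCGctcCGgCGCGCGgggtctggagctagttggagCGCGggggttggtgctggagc
Robo1, plus strand, chr16:72662899-72663148: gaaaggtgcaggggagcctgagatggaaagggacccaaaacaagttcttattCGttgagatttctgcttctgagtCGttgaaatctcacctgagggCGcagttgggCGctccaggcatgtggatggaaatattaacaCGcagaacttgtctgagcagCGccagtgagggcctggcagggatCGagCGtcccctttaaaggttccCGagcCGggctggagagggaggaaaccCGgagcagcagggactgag
Sema3a, plus strand, chr5:13396534-13396783: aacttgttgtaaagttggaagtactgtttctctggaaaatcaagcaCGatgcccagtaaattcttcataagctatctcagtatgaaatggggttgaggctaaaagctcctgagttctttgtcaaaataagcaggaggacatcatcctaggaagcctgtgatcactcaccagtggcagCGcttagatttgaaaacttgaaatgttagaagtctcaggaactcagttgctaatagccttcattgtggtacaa
Efnb2, minus strand, chr8:8661243-8661492: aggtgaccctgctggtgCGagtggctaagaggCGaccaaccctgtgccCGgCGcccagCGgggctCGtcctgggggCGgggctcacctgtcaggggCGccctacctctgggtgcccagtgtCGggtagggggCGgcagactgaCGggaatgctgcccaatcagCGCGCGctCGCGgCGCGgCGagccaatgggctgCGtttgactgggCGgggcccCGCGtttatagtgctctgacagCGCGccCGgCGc
Sema3c, plus strand, chr5:17574566-17574815: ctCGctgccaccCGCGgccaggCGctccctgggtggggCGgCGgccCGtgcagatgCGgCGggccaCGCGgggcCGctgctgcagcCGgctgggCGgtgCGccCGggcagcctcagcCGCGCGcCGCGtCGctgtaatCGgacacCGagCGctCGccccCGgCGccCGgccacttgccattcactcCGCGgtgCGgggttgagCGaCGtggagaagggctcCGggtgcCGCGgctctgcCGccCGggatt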

How the data were processed

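Agilent mouse expression arrays with a single dye, Cy3, measured total RNA of each sample. The authors deposited scanner files with median foreground and background intensity per spot, and a table of log2 intensity made with limma by background correction (normexp, offset 10) and quantile normalisation. The deposited columns had medians from 5.54 to 5.57 and a correlation of at least 0.999978 with values recomputed from the scanner files, which settles their scale and the absence of centring. Spots of a probe were averaged on the log2 scale. Of 23171 RefSeq accessions, 21865 were matched to a symbol of assembly GRCm38.p6, which was used for names and promoters. Where a gene had several probes (19 of the 58), the brightest over all arrays was used.

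All 42 arrays and 55681 probes entered 1 limma fit (version 3.58.1, R 4.3.3), in which each of the 14 groups had its own mean, with Benjamini-Hochberg adjustment over all probes. Every called gene is named, and with more than 10 calls the 5 largest changes in each direction are given with full statistics. Where no array of a group was above background, its values were raised to at least the dimmest probe above background on the array before a fold was taken. Such a fold still depends on the background offset and is not a lower limit. With 3 arrays per group an exact permutation test gives no p under 0.1, and the number of arrays limits the precision. The genes and lists were chosen with earlier results of these data known. Alternatives were values recomputed from the scanner files, a normexp offset of 50, scanner-processed signals scaled to the 75th percentile, quantile normalisation within each series, only probes above background, any probe of a gene, only the compared groups in the fit, slide or replicate number as a block, a looser threshold, and each array left out. In a simulation of ADE_EPZ against Control over 20972 genes, the fit called 193 of the 200 genes given a log2 increase of 2.5, and 1 gene given none. That increase was larger than every called change of the set in this comparison, of which the largest in size was -2.08 (Sema3a) and the smallest 1.55 (Robo1). Recovery of changes nearer the threshold of 1.5 was not simulated, so the simulation says little about these calls.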

Additional observations from a re-analysis of the deposited data

Results flagged for a closer look

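Nrn1 differed between the inhibitor regimens. The paper already names Nrn1 among neural genes raised with EPZ6438, from the same arrays, so its rise in ADE_EPZ is no independent observation. The log2 intensity of Nrn1 was 1.94 higher in ADE_EPZ than in ES_EPZ, a direct test of the difference between the effects of both regimens against the shared Control (standard error 0.29, limma adjusted p = 0.00031), and it was higher in 9 of 9 pairs of arrays. Within the slides the difference was 1.77, 1.70 and 2.33. Only 1 of 3 ES_EPZ arrays was above background. The call was lost with a normexp offset of 50 (1.23, limma adjusted p = 0.000148), with the 75th percentile scaling (2.97, limma adjusted p = 0.0159) and with only the compared groups in the fit (limma adjusted p = 0.0235).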

How the results depend on the processing

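Of 64 calls over the 11 comparisons, 32 were kept under each of the 8 alternatives that refit the brightest probe, 42 in all fits that left out 1 array, and 29 in both, with 0 reversed. With an adjusted p of at most 0.05 and no minimum fold, the genes of the set called were 8 at d2 against ESC, 12 in d3G+ against d3G-, 12 in d4G+ against d4G-, 18 in d5Glow and d5Ghigh against d5G-, 5 in d5Ghigh against d5Glow, 10 in d6G+H- against d5Ghigh, 14 in ADE_EPZ against Control, 5 in ES_EPZ against Control and 2 in ADE_EPZ against ES_EPZ. With a normexp offset of 50, which shrinks the change of dim probes, they were 0 at d2, 1 in d5Glow and d5Ghigh against d5G-, 1 in d5Ghigh against d5Glow and 0 in ADE_EPZ against ES_EPZ. Scaling by the 75th percentile left 1 in d5Ghigh against d5Glow and 0 in ES_EPZ against Control, and moved the median of all genes to 0.14 in d3G+ against d3G- and to -0.11 in d6G+H- against d5Ghigh. With only the compared groups in the fit, which leaves fewer arrays, 0 were called at d2, 1 in d5Glow and d5Ghigh against d5G- and 0 in d5Ghigh against d5Glow, d6G+H- against d5Ghigh, ES_EPZ against Control and ADE_EPZ against ES_EPZ. Shares of all genes called are not given for the offset of 50, the 75th percentile or the compared groups alone. These counts therefore do not say whether the set lost calls more often than other genes. 

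Leaving out 1 array at a time gave 1 to 2 calls at d2, 3 to 5 in d3G+ against d3G-, 5 to 7 in d4G+ against d4G-, 4 to 11 in d5Glow and d5Ghigh against d5G-, 0 to 4 in d5Ghigh against d5Glow, 5 to 9 in d6G+H- against d5Ghigh, 0 in d6G+H+ against d6G+H-, 24 to 27 in d6G+H+ against ESC, 5 to 7 in ADE_EPZ against Control, 0 to 3 in ES_EPZ against Control and 1 in ADE_EPZ against ES_EPZ. Deviations of same-numbered arrays had a correlation over 0.1 in 127 of 165 pairs from different untreated groups and in 6 of 9 pairs in the inhibitor series. The median correlation in the untreated groups was 0.232 for same-numbered and -0.195 for differently numbered arrays. In the inhibitor series the medians were 0.142 and -0.072. Same-numbered arrays thus shared part of their deviations, and the main fit held no term for the replicate number. With the replicate number as a block the counts, in the order of the comparisons from d2 to ADE_EPZ against ES_EPZ, were 2, 5, 7, 7, 2, 7, 0, 28, 6, 1 and 1. For the fits with 1 array left out and with this block, shares of all genes called are likewise not given. Dim probes limit Sema3d, Epha3, Robo2, Ntn4, Unc5d and Rgmb, for which a change under background could not be seen.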
